A study of Mus musculus with 8 samples.

Results

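The report covers 10 genes of 30406 gene identifiers that both runs of the series share: Depp1, Txnip, Pdk4, Klf9, Fkbp5, Tsc22d3, Per1, Zbtb16, Sgk1 and Foxo1. Depp1 was chosen by its response to high fat diet in arterial endothelial cells of the mesentery, which had been seen in an earlier look at these counts. The other 9 genes are known targets or partners of the same regulators and were taken by name. The diet contrast in the mesentery is therefore described and not tested for any of the 10 genes. They were found by symbol in the feature list of run B and matched to run A by identifier, and all 10 were found. Depp1 (ENSMUSG00000048489) carries the older name 8430408G22Rik in run A.

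The counts come from single-cell RNA sequencing of YFP-positive endothelial cells of male mice (ROSA26-eYFP+/+ Cdh5-CreERT2+), where a Cre driven by the endothelial gene Cdh5 switches on YFP after tamoxifen. All groups were fed tamoxifen for 2 weeks, starting at an age of 6 weeks. At 8 weeks the mice were moved to normal chow (5.8% fat) or high fat diet (60% fat), which they ate for 12 to 13 weeks. Each library pooled tissue from 6 mice, either mesentery or epididymal adipose. The 4 groups are mesentery on chow, mesentery after high fat diet, adipose on chow and adipose after high fat diet. Each has 2 libraries, A and B, from repeats of the experiment that are called runs here. Actinomycin D, which blocks transcription, was present during dissection and digestion of all samples, and how the YFP gate was set is not stated in the labels. The replicate is the pool, with n = 2 in every group, and cells were not counted as replicates.

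Depp1 encodes a small protein that was named for its induction by progesterone in decidual cells and is a target of FOXO transcription factors, where it has been linked to autophagy and oxidative stress. Foxo1 encodes a FOXO factor that insulin and growth factor signals, through AKT, keep out of the nucleus, and in endothelial cells it restrains growth and metabolism. Txnip (thioredoxin-interacting protein, which limits glucose uptake) and Pdk4 (a kinase that shuts down pyruvate dehydrogenase when fatty acids are burnt) are known to rise in fasting or under high FOXO activity. Klf9, Fkbp5, Tsc22d3 (also known as GILZ), Per1, Zbtb16 and Sgk1 are classical targets of the glucocorticoid receptor. Fkbp5 is a co-chaperone that dampens that receptor, Tsc22d3 is an anti-inflammatory mediator, Per1 is a clock gene, Klf9 and Zbtb16 are zinc finger transcription factors, and Sgk1 is a kinase that itself phosphorylates FOXO factors.

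The runs differed in depth and in stress genes more than the groups of a run did. Run A libraries held 3461360 to 6714473 UMIs and run B libraries 18829960 to 36779289. After filters 23207 cells were used. The summed level of 9 genes induced by dissociation (Fos, Jun, Hspa1a and others) was 7239 to 11070 CPM (UMI counts scaled to the total of the class in that library) in all endothelial cells of run A and 507 to 571 CPM in run B. The summed level of 8 adipocyte markers in the same cells was 4.68 to 33.5 CPM in run A. In run B it was 2885 CPM in mesentery and 5668 CPM in adipose on chow, and 168 and 68.9 CPM after high fat diet. In the 4 named endothelial classes the 8 general endothelial markers were detected, with a summed level of 10040 to 12460 CPM in arterial-like cells. Levels below come from UMI counts summed over the cells of a class in 1 library. The 3' counts were not corrected for gene length, so levels are compared between cells and groups and not between genes.

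Promoters are shown for Depp1, on which the results turn, and for 4 of the genes whose window holds a letter match to the motifs searched. RefSeq promoters (GRCm38.p6, 250 bases before to 50 bases after a start site) were found for 9 of the 10 genes, in 17 windows. Searched on both strands were the FOXO motif TGTTTAC, the glucocorticoid motifs AGAACA and TGTTCT in that order and 3 bases apart, and the E-box CACGTG that clock factors bind. Capitals mark the matches, and the strand given is that of the gene.
Depp1 (chr6:116650434-116650733, plus strand): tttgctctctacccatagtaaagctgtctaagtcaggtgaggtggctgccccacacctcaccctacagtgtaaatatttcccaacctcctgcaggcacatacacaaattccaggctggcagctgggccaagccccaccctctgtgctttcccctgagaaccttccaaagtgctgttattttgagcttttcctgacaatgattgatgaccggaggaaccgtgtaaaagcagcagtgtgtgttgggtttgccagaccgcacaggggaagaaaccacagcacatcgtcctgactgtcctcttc
Txnip (chr3:96557707-96558006, plus strand): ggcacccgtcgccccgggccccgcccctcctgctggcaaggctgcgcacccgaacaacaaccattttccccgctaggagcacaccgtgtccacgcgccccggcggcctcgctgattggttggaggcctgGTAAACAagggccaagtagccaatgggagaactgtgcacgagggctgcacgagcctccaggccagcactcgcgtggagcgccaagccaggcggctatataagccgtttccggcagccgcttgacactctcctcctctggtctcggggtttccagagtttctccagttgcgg
Klf9 (chr19:23140976-23141275, plus strand): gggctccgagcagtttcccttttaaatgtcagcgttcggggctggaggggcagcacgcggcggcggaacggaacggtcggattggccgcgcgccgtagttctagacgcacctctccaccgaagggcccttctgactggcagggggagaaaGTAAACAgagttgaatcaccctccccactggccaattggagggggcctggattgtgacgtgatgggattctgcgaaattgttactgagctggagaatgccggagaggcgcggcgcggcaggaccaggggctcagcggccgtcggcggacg
Sgk1, promoter 5 of 6 (chr10:21993640-21993939, plus strand): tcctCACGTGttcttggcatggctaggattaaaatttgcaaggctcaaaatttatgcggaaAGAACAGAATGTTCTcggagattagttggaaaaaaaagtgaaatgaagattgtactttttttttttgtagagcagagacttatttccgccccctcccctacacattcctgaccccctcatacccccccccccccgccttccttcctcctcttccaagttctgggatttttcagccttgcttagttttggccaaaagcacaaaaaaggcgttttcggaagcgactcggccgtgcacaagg
Per1, promoter 1 of 2 (chr11:69098699-69098998, plus strand): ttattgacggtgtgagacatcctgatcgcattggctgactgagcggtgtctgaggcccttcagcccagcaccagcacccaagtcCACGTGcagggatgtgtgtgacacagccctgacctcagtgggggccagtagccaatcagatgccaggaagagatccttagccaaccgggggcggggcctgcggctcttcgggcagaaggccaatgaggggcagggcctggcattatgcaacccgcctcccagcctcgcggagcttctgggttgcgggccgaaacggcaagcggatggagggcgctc

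The FOXO motif was in the Txnip promoter, where its first base lies 121 bases before the start site, and in the Klf9 promoter, 100 bases before it. In both it reads as the reverse complement on the gene's strand. The motif was in 3.65% of all 32851 promoter windows. The paired glucocorticoid motif was in 1 window of the 10 genes, Sgk1 promoter 5, with its first base 189 bases before the start site, and in 3 of all windows (0.00913%). The E-box was in Fkbp5, in Per1 promoter 1 and in Sgk1 promoter 5, at 169, 166 and 246 bases before the start site, and in 7.15% of all windows. None of the 3 motifs was in the Depp1 window, which says only that these letters are not in those 300 bases. A match is a match of letters and was not tested as a binding site.

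In all endothelial cells, Depp1 was at 87.3 CPM in run A and 36.5 CPM in run B in mesentery on chow, and at 140 and 95.5 CPM after high fat diet. In adipose it was at 86.4 and 127 CPM on chow and at 219 and 96.4 CPM after high fat diet. It was thus higher after high fat diet in both runs of the mesentery and in run A alone of adipose. Foxo1 ranged over the 4 groups from 66.4 to 93.2 CPM in run B and from 95.8 to 145 CPM in run A.

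**Figure D1:**
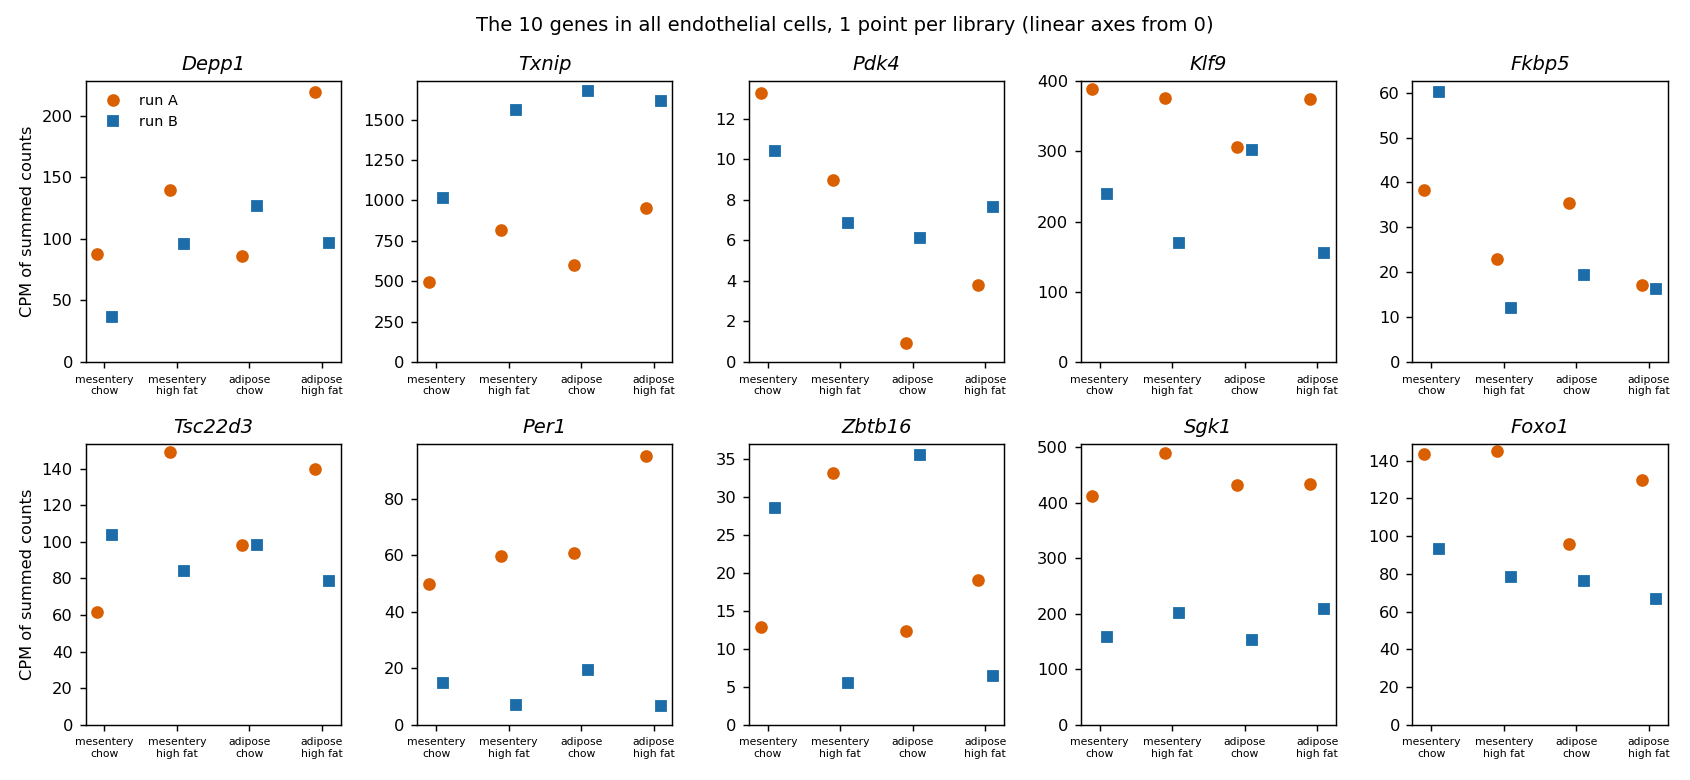
Level of each of the 10 genes in all endothelial cells, in CPM of summed counts on linear axes from 0, by group; circles are run A and squares run B, 1 library each. Per1 and Sgk1 lie higher in run A than in run B in every group, Txnip lies lower, and Zbtb16 moves in opposite directions with diet in the 2 runs.

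Among the 4 named endothelial classes, Depp1 had its highest medians in arterial-like and capillary-like cells. Its median over the 8 libraries was 190 CPM in arterial-like cells (lowest 23.5, highest 566) and 170 CPM in capillary-like cells (74.5 to 590), and arterial-like cells had the higher value in 5 of 8 libraries. In venous-like cells the median was 28.1 CPM (6.10 to 248), below the capillary-like value in 8 of 8 libraries. In lymphatic-like cells it was 14.4 CPM (3.73 to 37.4), below the venous-like value in 8 of 8. Arterial-like and capillary-like levels therefore did not separate, and each further step down held within every library although the ranges over libraries overlapped. Endothelial cells without a class name had 62.5 to 330 CPM. Outside the endothelium Depp1 was at 0 to 33.3 CPM in T cell-like and 0 to 25.5 CPM in B cell-like cells. Fibroblast-like cells had 0 to 47.9 CPM and adipocyte-like cells 18.7 to 37.8 CPM. Mural-like cells had 0 and 4.16 CPM in run A and 30.9 to 63.1 CPM in run B.

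**Figure D2:**
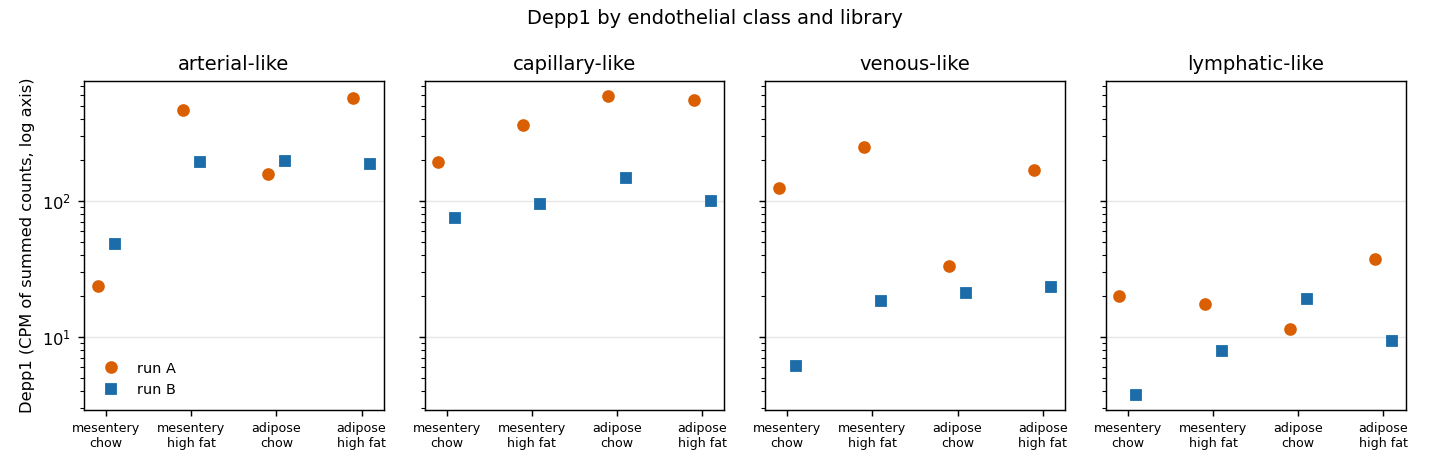
Depp1 in CPM of summed counts on a log axis, by endothelial class and group, 1 point per library (circles run A, squares run B). Arterial-like cells of mesentery on chow (23.5 and 48.4 CPM) lie below the other 6 arterial-like libraries (157 to 566 CPM), and lymphatic-like cells stay under 38 CPM in all 8 libraries.

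In arterial-like cells the low group was mesentery on chow. Depp1 had 18 counts (23.5 CPM) there in run A and 145 counts (48.4 CPM) in run B. On high fat diet the mesentery had 169 counts (469 CPM) and 585 counts (194 CPM). Adipose had 54 counts (157 CPM) and 786 counts (197 CPM) on chow, and 161 counts (566 CPM) and 589 counts (186 CPM) after high fat diet. Mesentery on chow did not overlap with any other group, while the other 3 groups overlapped. These mesentery libraries entered the choice of the gene, and the share of all genes that separate in this way was not computed. With 1 CPM added to both values, the high fat diet to chow ratio in mesentery was 19.2-fold in run A and 3.95-fold in run B. On the log2 scale it was 3.15 ± 0.70 (SE, n = 2 libraries a group), and 2.76 ± 0.38 with the run as a block. This is the contrast that chose the gene and is given as a description. With the block, 3.13% of the 10338 genes tested in arterial-like cells were called in it, and without the block 0%.

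The comparisons that the choice did not use were put to the quasi-likelihood test of edgeR over all genes, first without and then with the run as a block, since the labels describe the runs as repeats of 1 experiment. Without the block edgeR called 0 genes at an adjusted p under 0.05 in any of the 12 fits, with 30 to 507 genes at an unadjusted p under 0.05. Over the 9 tested fits limma-voom also called 0 genes, and DESeq2 called 0 in arterial-like and capillary-like cells and 2, 80 and 7 in all endothelial cells. In arterial-like cells on chow, Depp1 was lower in mesentery than in adipose in both runs. The log2 difference was -2.23 ± 0.68, with an edgeR adjusted p of 1 without the block. With the block it was -2.11 ± 0.38 with an edgeR adjusted p of 0.00125, beside calls for 3.48% of the 10338 genes. This comparison shares the mesentery libraries on chow with the one that chose the gene, so it is not independent of that choice. Leaving out 1 library at a time, the call with the block held in 7 of 8 fits and was lost without adipose on chow B (edgeR adjusted p of 0.629), with log2 differences from -3.51 to -1.35. DESeq2 with the block gave -2.18 and an adjusted p of 0.232. On high fat diet the arterial-like difference between the tissues was -0.13 ± 0.35 with the block (edgeR adjusted p of 1; 0.135% of genes called). Diet in adipose changed arterial-like Depp1 by 0.78 ± 0.36 with the block (edgeR adjusted p of 1; 0.31% of genes called), with 157 to 566 CPM in run A against 197 to 186 CPM in run B.

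The arterial-like class held 3 clusters whose shares differed between the groups, and Depp1 differed between the clusters. Cluster 18, led by Klk10, Cytl1 and Adh7, made up 60.8% of arterial-like cells in mesentery on chow A and 34.7% in chow B, against 0.8 to 21.6% in the other 6 libraries. Depp1 had 0 to 8 counts a library in it, in the 6 libraries that held at least 20 of its cells. These counts gave 3.65 to 74.4 CPM in run A and 0 to 6.12 CPM in run B. Cluster 5, led by Alox12, Col8a1 and Slc6a6, had the highest levels. There Depp1 was at 173 and 140 CPM (runs A and B) in mesentery on chow and at 876 and 257 CPM after high fat diet. In adipose cluster 5 had 505 and 277 CPM on chow and 949 and 243 CPM after high fat diet. In cluster 6, led by Gkn3, Igf2 and Gja5, the mesentery had 21.1 and 36.4 CPM (3 and 35 counts) on chow against 486 and 129 CPM after high fat diet. Adipose cluster 6 had 26.5 and 88.5 CPM on chow and 340 and 48.3 CPM after high fat diet. In clusters 5 and 6 taken singly, mesentery had the higher level after high fat diet in both runs. The run A values of cluster 5 there rest on 33 cells on chow and 36 after high fat diet. Cluster 18, with 0 to 8 counts a library, had too few counts for this comparison. In clusters 5 and 6 together the difference between tissues on chow was smaller, at -1.25 ± 0.32 with the block (edgeR adjusted p of 0.0631), so that its call did not hold in them.

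**Figure D3:**
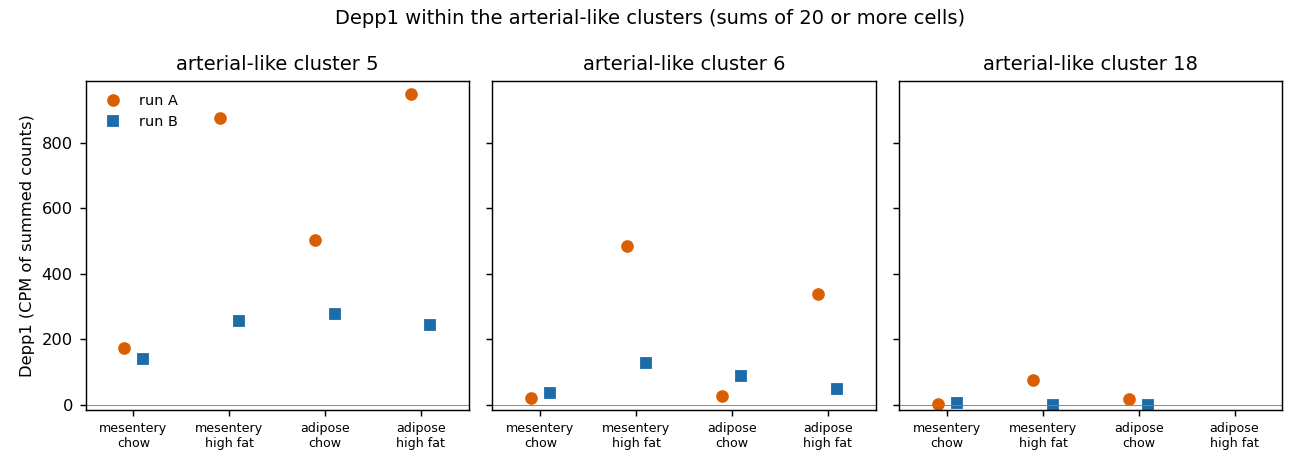
Depp1 in CPM of summed counts in each arterial-like cluster, by group, 1 point per library with at least 20 cells of that cluster (circles run A, squares run B). Cluster 5 is highest, at 140 to 949 CPM, cluster 6 ranges from 21.1 to 486 CPM, and cluster 18 stays at 0 to 74.4 CPM; its adipose libraries after high fat diet had too few cells to show.

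Capillary markers moved with Depp1 in the arterial-like sums. The summed level of the 8 capillary markers was 217 CPM in mesentery on chow and 450 to 1106 CPM in the other groups of run A. In run B it was 1653 CPM in mesentery on chow and 4501 to 5542 CPM in the other groups. The part of these cells in the Depp1 difference was not tested.

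The share of cells with a Depp1 UMI followed the summed levels. With every cell thinned to 1000 UMIs, 2.3% of arterial-like cells of mesentery on chow A carried one (4 of 173 cells, exact 95% interval 0.6 to 5.8%) and 5.0% on chow B (32 of 636, 3.5 to 7.0%). On high fat diet the mesentery had 25.7% (27 of 105, 17.7 to 35.2%) and 14.1% (73 of 517, 11.2 to 17.4%). Adipose had 10.1% and 16.3% on chow and 33.3% and 14.0% after high fat diet. Unthinned, the mesentery shares were 7.4% and 13.3% on chow and 36.2% and 40.6% after high fat diet. In T cell-like and B cell-like cells, which should lack the gene, 0 to 3.7% carried a UMI after thinning. The median depth of these lymphocytes was 1627 to 5249 UMIs and that of arterial-like cells 1685 to 5216 UMIs. The 3.7% was 1 of 27 T cell-like cells of adipose after high fat diet A, and the other lymphocyte libraries were at 0 to 0.7%. In mesentery on chow A itself, 0 of 102 T cell-like and 0 of 54 B cell-like cells carried one. Intervals cover counting error only.

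**Figure D4:**
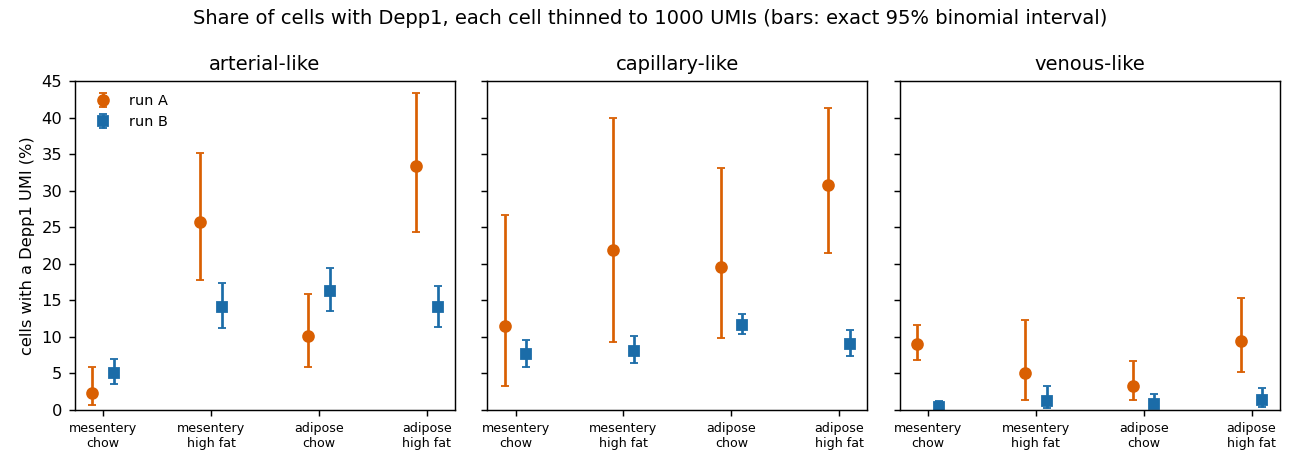
Percentage of arterial-like, capillary-like and venous-like cells with at least 1 Depp1 UMI after thinning each cell to 1000 UMIs, by group; circles are run A, squares run B and bars exact 95% binomial intervals. Arterial-like cells of mesentery on chow (2.3 and 5.0%) lie below the other arterial-like libraries (10.1 to 33.3%), and venous-like cells stay at 0.4 to 9.4%.

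In capillary-like cells Depp1 was at 192 and 74.5 CPM (19 and 273 counts, runs A and B) in mesentery on chow and at 362 and 94.4 CPM (35 and 475 counts) after high fat diet. Adipose had 590 and 147 CPM on chow and 549 and 99.8 CPM after high fat diet. Within each run mesentery on chow was the lowest of the 4 groups. The diet difference in mesentery was 0.79 ± 0.99 on the log2 scale and 0.53 ± 0.30 with the block, as a description beside 0.775% of 10456 genes called with the block. Without mesentery on high fat diet A the unblocked difference turned to -0.29, and without mesentery on high fat diet B it was 1.555. On chow, Depp1 was lower in mesentery than in adipose by a log2 difference of -1.17 ± 0.29 with the block (edgeR adjusted p of 0.0203; 0.411% of genes called). Without the block it was -1.55 ± 0.98 with an edgeR adjusted p of 1. The call with the block held in 3 of 8 fits that left out 1 library. It was lost without either chow library of the mesentery, without either chow library of adipose and without mesentery after high fat diet B, with edgeR adjusted p up to 0.884. DESeq2 with the block gave an adjusted p of 0.616. Run A had only 39 to 146 capillary-like cells a library. Over all endothelial cells, Depp1 was called in 0 of the 3 tested comparisons, where 0.0446% of 13468 genes were called for diet in adipose, 0.356% for tissue on chow and 0% for tissue on high fat diet with the block. For diet in mesentery the share called was 0.0446%.

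The genes most like Depp1 over the 32 sums of 4 classes and 8 libraries, with run means removed, were Myo10 (Spearman rho 0.866), Fryl (0.864), Apbb2 (0.862), Kitl (0.861), Flt1 (0.847), Cdc42ep1 (0.840), Uaca (0.834) and Slc39a10 (0.832), out of 6449 genes of at least 20 CPM. Kitl encodes a ligand of the receptor KIT and Flt1 a receptor of VEGF. The 32 sums share libraries and depth, so these are descriptions. The other genes of the set were far less like it. Per1 had rho 0.421 (rank 956), Tsc22d3 0.325, Txnip 0.290, Klf9 0.099, Sgk1 0.068, Foxo1 -0.288 and Fkbp5 -0.589, while Pdk4 and Zbtb16 were under 20 CPM.

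Among the FOXO side of the set, Foxo1 itself was highest in venous-like cells, with a median of 142 CPM (103 to 186), above lymphatic-like cells in 8 of 8 libraries. Lymphatic-like, capillary-like and arterial-like cells had medians of 105, 88.7 and 86.7 CPM, and these 3 did not separate over libraries. Its diet difference in mesentery was -0.05 ± 0.24 in arterial-like and -0.11 ± 0.33 in capillary-like cells with the block.

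In mesentery, Txnip was higher after high fat diet in both runs of arterial-like, capillary-like and lymphatic-like cells, and in run B alone of venous-like cells. In arterial-like cells it was at 273 and 838 CPM (runs A and B) on chow and 579 and 1494 CPM after high fat diet in mesentery. In adipose it was at 366 and 1614 CPM on chow and 952 and 1553 CPM after high fat diet. As with Depp1, mesentery on chow had the lowest level of each run, and the share of all genes with this order was not computed. The arterial-like difference of diet in mesentery was 0.85 ± 0.75 on the log2 scale, and 0.88 ± 0.24 with the block. Cluster 18, whose share was largest in mesentery on chow, had 260.9 and 508.6 CPM there and 254.9 and 570.6 CPM after high fat diet. In mesentery cluster 5 had 491.8 and 1338 CPM on chow and 624.1 and 1795 CPM after high fat diet. Cluster 6 had 203.5 and 907.1 CPM on chow and 725.7 and 1182 CPM after high fat diet. The part of the cluster shares was not tested. In capillary-like cells mesentery on chow was again lowest in each run, at 283 and 1482 CPM, against 574 to 1301 CPM in run A and 1960 to 2011 CPM in run B. Txnip was lower in run A than in run B in all 4 groups of all endothelial cells, at 0.356 to 0.589 times the run B level. Over classes its medians ran from 717 CPM in venous-like to 1392 CPM in capillary-like cells with overlapping ranges.

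Pdk4 was rare in most of the endothelium, at 0 to 21.9 CPM in arterial-like, capillary-like and venous-like cells. In arterial-like cells of adipose on chow A it had 0 counts, which allows up to 8.70 CPM. Within the arterial-like class, 28 of the 34 counts in mesentery on chow B were in cluster 18 (21.4 CPM), which had 0 or 1 count in its other 5 libraries. In lymphatic-like cells, mesentery on chow had 29 counts (22.1 CPM) in run A and 62 counts (14.5 CPM) in run B, against 0 to 6 counts (0 to 3.87 CPM) in the other 6 libraries. Of those counts 28 and 62 were in cluster 14, a lymphatic-like cluster led by Marco, Bmp2 and Serpina3g that had 109 and 428 cells there, 31 and 2 cells in mesentery after high fat diet and 0 in adipose. Within cluster 14, Pdk4 was at 53.2 and 20.2 CPM on chow A and B and at 28.6 CPM (6 counts) after high fat diet A. In the other lymphatic-like clusters, 4 and 13, Pdk4 had 0 to 2 counts in every library. The diet difference in lymphatic-like cells (0 to 6 counts after high fat diet) thus lay in cluster 14, whose number of cells also differed with diet. With 31 and 2 such cells after high fat diet, cell number and level within the cells cannot be told apart. Their parts were not tested.

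Among the 4 named endothelial classes Fkbp5 had its highest median in lymphatic-like cells, while fibroblast-like cells had 29.9 to 168 CPM and mural-like cells 26.2 to 137 CPM. Its lymphatic-like level was 69.2 and 151 CPM (91 and 649 counts) in mesentery on chow and 20.6 and 26.0 CPM after high fat diet, and in cluster 14 it was 137 and 190 CPM on chow A and B and 62.0 CPM after high fat diet A. In cluster 4, where Pdk4 was near 0, mesentery also had lower Fkbp5 after high fat diet, with 16.9 against 29.2 CPM in run A and 30.8 against 66.9 CPM in run B. Median Fkbp5 fell from 45.8 CPM in lymphatic-like and 32.0 CPM in venous-like cells to 15.1 CPM in capillary-like and 9.50 CPM in arterial-like cells. Venous-like cells were above capillary-like cells in 7 of 8 libraries, and lymphatic-like cells above venous-like cells in 6 of 8. Depp1 had the opposite ends to this order, although capillary-like and arterial-like cells did not separate for either gene. The diet difference of Fkbp5 in mesentery over all endothelial cells was -1.51 ± 0.46 on the log2 scale, and -1.64 ± 0.38 with the block. By class it was lower in 4 of 4 in run B, but in run A lower in 2 and higher in 2 (log2 -1.698 to 0.752). The make-up of these sums also differed, with 598 venous-like cells on chow A and 81 after high fat diet A. Its part was not tested.

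The runs differed in the direction of the diet difference for several glucocorticoid targets. Over the 8 pairs of 4 classes and 2 tissues, Zbtb16 was lower after high fat diet in 8 of 8 pairs of run B, by log2 differences of -3.22 to -1.72, and higher in 8 of 8 pairs of run A. Per1 and Fkbp5 were lower in 8 of 8 pairs of run B, and Klf9, Tsc22d3 and Foxo1 in 7 of 8. In run A, Per1, Tsc22d3, Klf9 and Txnip were higher in 7 of 8 pairs, and Fkbp5 was lower in 5 of 8. Sgk1 was higher in 6 of 8 pairs of both runs. Of 6450 genes of at least 20 CPM, 3.84% were lower and 3.05% higher in all 8 pairs of run B, and 2.78% were lower and 2.09% higher in all 8 pairs of run A, and the share for 7 of 8 pairs was not computed. The classes of a library share their mice and preparation, so the 8 pairs are not independent.

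**Figure D5:**
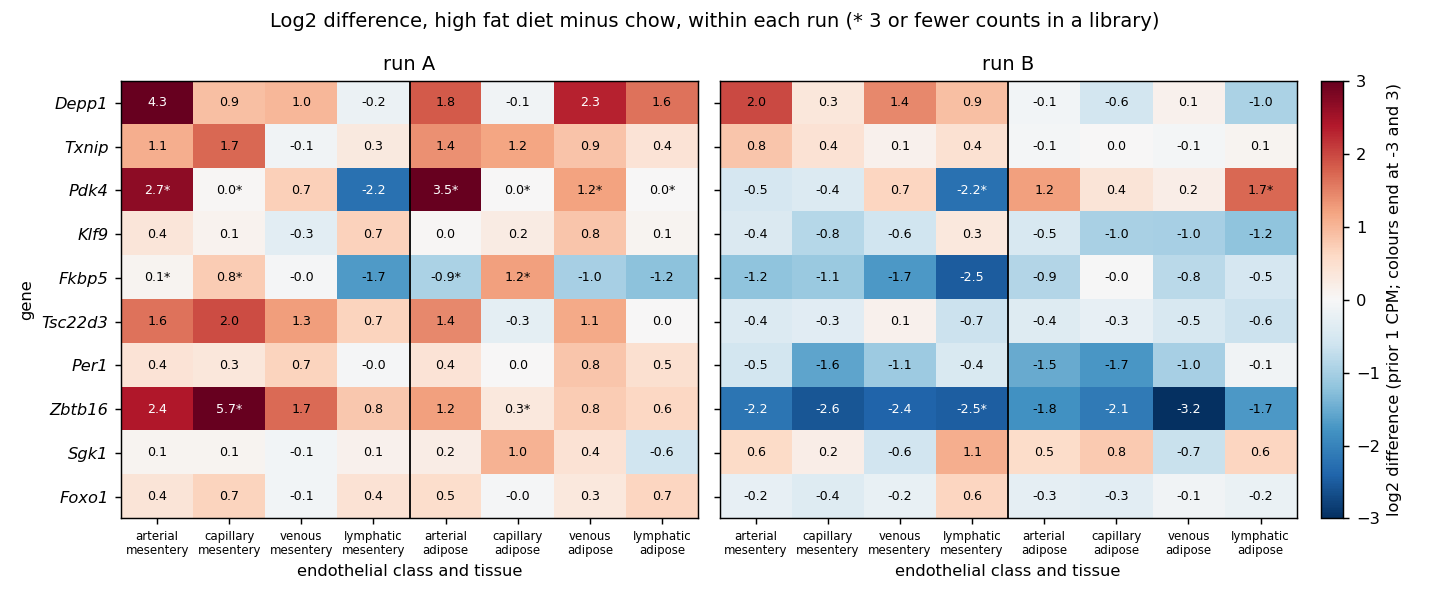
Log2 difference of high fat diet minus chow within run A (left) and run B (right) for each gene (rows) in each endothelial class and tissue (columns), with a prior of 1 CPM; red is higher after high fat diet, colours stop at 3, and an asterisk marks pairs in which a library had 3 or fewer counts. Zbtb16 is red in all 8 columns of run A and blue in all 8 of run B, and Depp1 in arterial-like cells of the mesentery is red in both.

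Zbtb16 gave the widest split. In all endothelial cells of run B it had 529 counts (28.6 CPM) in mesentery and 1060 counts (35.5 CPM) in adipose on chow, and 73 counts (5.44 CPM) and 93 counts (6.34 CPM) after high fat diet. In run A it had 67 counts (12.9 CPM) and 26 counts (12.3 CPM) on chow, and 85 counts (33.2 CPM) and 40 counts (19.1 CPM) after high fat diet. The adipocyte markers of run B moved with it, as given above, and adipocyte-like cells of chow B had 36.5 and 45.1 CPM of Zbtb16. In lymphatic-like cells of run B, the adipocyte markers summed to 129 and 141 CPM on chow (mesentery and adipose) and to 9.03 and 11.5 CPM after high fat diet. Zbtb16 was there at 10.7 and 25.1 CPM (46 and 20 counts) on chow and at 1.13 and 6.91 CPM (1 and 6 counts) after high fat diet. The part of adipocyte RNA in the difference was not tested. The comparison of diet in adipose was tested in capillary-like cells. There Zbtb16 had 551 counts (37.7 CPM) on chow B and 45 counts (7.89 CPM) after high fat diet B, and 2 and 5 counts in run A. The log2 difference was -1.80 ± 0.48 with the block (edgeR adjusted p of 0.0213; 1.23% of genes called) and -1.37 ± 1.06 without (edgeR adjusted p of 1). It was lower in run B alone, and the call was lost in 4 of 8 fits that left out 1 library, each of which left out a library of run B. The log2 difference ranged over the 8 fits from -2.10 to -0.12. DESeq2 with the block gave an adjusted p of 1.

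Sgk1 was higher in run A than in run B in all 4 groups of all endothelial cells, 2.08 to 2.82-fold. In capillary-like cells of adipose it was at 349 and 166 CPM (45 and 2420 counts, runs A and B) on chow and at 717 and 285 CPM (183 and 1626 counts) after high fat diet. It was higher after high fat diet in both runs, by a log2 difference of 0.98 ± 0.28 with the block (edgeR adjusted p of 0.0443) and 1.10 ± 0.74 without (edgeR adjusted p of 1). The call with the block held in 2 of 8 fits that left out 1 library, without mesentery on chow A or without adipose after high fat diet A, and the difference ranged from 0.797 to 1.198. It was lost in DESeq2 with the block (adjusted p of 0.438). In mesentery, capillary-like Sgk1 was at 769 and 232 CPM on chow and 808 and 267 CPM after high fat diet. Over classes its medians were 256 to 317 CPM, with overlapping ranges.

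Per1 was the member most tied to the run. Over all endothelial cells it was 3.17 to 14.4-fold higher in run A, with 49.7 to 95.03 CPM against 6.61 to 19.2 CPM. In run B it was at 14.6 and 19.2 CPM on chow in mesentery and adipose, and at 6.86 and 6.61 CPM after high fat diet. In run A it was at 49.7 and 60.9 CPM on chow and at 59.7 and 95.03 CPM after high fat diet. The dissociation genes moved with the run in the same direction. The labels give no collection time for the tissues, and its part in a clock gene was not tested. Arterial-like cells had the highest median, 63.9 CPM, above capillary-like cells in 7 of 8 libraries.

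Tsc22d3 and Klf9 did not separate the endothelial classes, with medians of 97.8 to 103 CPM and 247 to 293 CPM. Tsc22d3 was lowest in mesentery on chow in run A, at 61.4 CPM in all endothelial cells against 98.2 to 149 CPM in the other 3 groups. In run B mesentery on chow was instead the highest, at 104 CPM against 78.5 to 98.2 CPM. The runs also differed in T cell-like cells, which had 293 to 715 CPM in run A and 68.9 to 99.1 CPM in run B. Klf9 in all endothelial cells was at 239 and 302 CPM on chow in mesentery and adipose of run B and at 170 and 155 CPM after high fat diet, while run A stayed at 307 to 389 CPM in all 4 groups. In cluster 14, rich in Fkbp5, Klf9 was only at 57.6 to 90.6 CPM.

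Of the 10 genes, each passed the filter on low counts in all 3 populations tested, and those named above with an adjusted p under 0.05 (Depp1 in arterial-like and capillary-like cells on chow, Zbtb16 and Sgk1 in capillary-like cells of adipose) are the full set called with the block in the tested comparisons. Both Depp1 calls rest on the mesentery libraries on chow that also entered the contrast that chose the gene. On high fat diet 0 of the 10 genes were called between the tissues in capillary-like cells, where 0.23% of genes were called.

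The wider pathways were read from lists taken by name, here and under other observations. The lists were chosen with earlier results of these data known, so their calls are not independent support for a pathway. Calls for diet in mesentery come from the contrast that chose Depp1, and those for tissue on chow share its mesentery libraries on chow. Unlike calls of the 10 genes, those of list genes were not followed in DESeq2 or with 1 library left out. Of 15 further FOXO targets, 13 to 15 were tested, and over 12 fits with the block (3 populations by 4 comparisons) 0 calls were higher and 1 was lower. Over the same fits 0 to 3.48% of all genes were called, and 1.23% in the fit that held the call. The gene was Angpt2, which encodes a TIE2 ligand that destabilises vessels, in capillary-like cells of adipose. It had -1.76 ± 0.44 (log2, edgeR adjusted p of 0.00901), from 51.1 to 10.2 CPM in run B and from 15.5 to 27.4 CPM in run A. The list's median log2 difference lay between -0.19 and 0.08 over the 12 fits, beside -0.03 to 0.01 for all genes tested. FOXO factors and insulin signalling genes (7 of 9 tested) had 0 calls.

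Of 14 further glucocorticoid targets, 13 were tested, with 3 calls higher and 4 lower over the 12 fits with the block, and a median log2 difference between -0.43 and 0.22. The 4 fits that held these calls called 3.13, 0.775, 0.411 and 0.23% of all genes. Ddit4, an inhibitor of mTORC1 that FOXO factors also induce, was lowest in mesentery on chow among the groups given here, in capillary-like cells. It was at 10.1 and 38.7 CPM (runs A and B) in mesentery on chow, 93.2 and 94.0 CPM after high fat diet and 124 and 89.1 CPM in adipose on chow. Its difference was 1.45 ± 0.35 for diet in mesentery (edgeR adjusted p of 0.00802) and -1.48 ± 0.35 for tissue on chow (edgeR adjusted p of 0.012), both with the block and sharing the libraries of mesentery on chow. Rasd1, a small G protein, was at 60.1 and 12.4 CPM in arterial-like cells of mesentery on chow and at 288 and 20.9 CPM after high fat diet (1.51 ± 0.32 with the block, edgeR adjusted p of 0.00753). Glul, glutamine synthetase, rose there from 167 and 307 to 435 and 617 CPM (1.10 ± 0.24, edgeR adjusted p of 0.00831). The metallothionein Mt1 was lower in capillary-like cells of mesentery after high fat diet than on chow (-1.52 ± 0.36, edgeR adjusted p of 0.00536), from 71.7 to 20.7 CPM in run B with 10.1 and 10.4 CPM in run A. The capillary-like sums of mesentery in run A held 98872 UMIs on chow and 96574 after high fat diet. The run A values of Ddit4 and Mt1 in them thus rest on few counts. On high fat diet Mt1 (-1.50 ± 0.37, edgeR adjusted p of 0.0304) and the sulfotransferase Sult1a1 (-1.29 ± 0.33, edgeR adjusted p of 0.0478) were lower in mesentery than in adipose in capillary-like cells. The receptors and steroid enzymes had 0 calls, with Nr3c1, the glucocorticoid receptor, at 165 to 285 CPM in all endothelial cells. Hsd11b2, which inactivates glucocorticoids, was at 0 to 0.594 CPM there.

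Among 16 clock genes, 13 to 15 were tested and 2 calls were made with the block, both of Bhlhe40, a transcriptional repressor, in fits that called 3.13 and 3.48% of all genes. In arterial-like cells Bhlhe40 was at 697 and 51.7 CPM in mesentery on chow, 266 and 23.3 CPM after high fat diet and 357 and 22.9 CPM in adipose on chow. The differences were -1.34 ± 0.24 for diet in mesentery (edgeR adjusted p of 0.00139) and 1.13 ± 0.23 for tissue on chow (edgeR adjusted p of 0.00394), opposite in sign to those of Depp1. The clock output genes Dbp and Hlf were not called in any fit. In all endothelial cells of run B, Dbp was at 11.9 and 9.11 CPM on chow (mesentery and adipose) and at 4.47 and 6.41 CPM after high fat diet, and Hlf was at 15.8 and 7.63 CPM and at 2.91 and 3.00 CPM. These levels are of run B alone, and the clock gene Per1 differed in direction between the runs.

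The list of paralogs and relatives of the 10 genes had 2 calls with the block, both of Arrdc4, the arrestin-domain relative of Txnip, in the same fits (3.13 and 3.48% of all genes called). In arterial-like cells Arrdc4 was at 24.8 and 23.0 CPM in mesentery on chow, 94.3 and 67.8 CPM after high fat diet and 72.5 and 46.7 CPM in adipose on chow. Its difference was 1.62 ± 0.30 for diet in mesentery (edgeR adjusted p of 0.00252) and -1.12 ± 0.31 for tissue on chow (edgeR adjusted p of 0.0454). Among the groups given here, which leave out adipose after high fat diet, mesentery on chow was lowest in both runs. For Depp1 and Txnip in arterial-like cells it was lowest of all 4 groups. The share of all genes with either order was not computed. The arterial-like cluster shares also differed in mesentery on chow, and their part was not tested.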

How the data were processed

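The authors deposited 8 filtered matrices of UMI counts per gene and cell, not normalized. Per the file headers the counting software had version 3.0.2 in run A and 5.0.0 in run B, and the submitters' processing notes name mm10 and Seurat 4.3.0. Genes were joined on the 30406 shared identifiers, which held 99.58 to 99.93% of UMIs. Of 27944 barcodes, 23970 had at least 500 UMIs, 300 genes and at most 10% mitochondrial UMIs. That last limit removed 22.8 to 30.8% of barcodes in run A and 5.4 to 9.0% in run B. Scrublet on its automatic setting marked 40 cells (0.17%). Doublets were therefore taken by score at a rate of 0.8% per 1000 loaded cells, which removed 763 (3.18%) and left 23207. At most 8 barcodes were shared by 2 libraries of a run.

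Cells were clustered without the 10 genes and the lists (2000 variable genes, 30 components, Harmony written anew, 20 neighbours, Leiden resolution 1; scanpy 1.11.5, Python 3.11.15). Clusters were named from fixed markers, under limits set after the clusters were seen, and may differ from the names the authors used. Counts were summed per library and class and tested over all genes with edgeR 4.0.16 (R 4.3.3; TMM, filterByExpr, quasi-likelihood), with Benjamini-Hochberg adjustment. DESeq2 1.42.0, limma-voom 3.58.1, no filter, the run block, other cell filters and each library left out were alternatives. Restricting to 2 arterial-like clusters or to named classes, and joining cell filters with the block, were chosen after seeing the data. Run letters pair the samples, since the labels describe the experiment as done in repeats. Deviations from group means correlated between same-lettered samples at 0.502 to 0.633 in arterial-like, 0.298 to 0.389 in capillary-like and 0.615 to 0.794 in all endothelial cells. The edgeR fits with and without the block were also run on simulated arterial-like counts. In these, 200 genes above the median level were given 4-fold changes for diet in adipose. The outcome is not given here, and such a setting does not bear on rare genes or smaller differences.

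The 10 genes and all lists were chosen with earlier results of these data known. All 10 genes are named with levels, and those with an adjusted p under 0.05 with or without the block are given with their test. From each list up to 3 called genes in each direction are named, and the 8 genes most like Depp1 by Spearman correlation.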

Additional observations from a re-analysis of the deposited data

Results flagged for a closer look

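Depp1 in capillary-like cells moved with diet in one direction in both runs of the mesentery and in the other in both runs of adipose. The mean log2 difference between high fat diet and chow was higher in mesentery than in adipose by 0.954. This difference between the tissues was not tested, and the run A libraries held 19 to 140 Depp1 counts.

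Pdk4 in all endothelial cells was lower after high fat diet in both runs of the mesentery and higher in both runs of adipose, with a difference between the tissues of -1.324 on the log2 scale. It was not tested. Adipose had 2 and 8 counts in run A, and cluster 14 supplied 28 of 69 counts in mesentery on chow A.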

How the results depend on the processing

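The fit without the run as a block called 0 genes in each comparison. In arterial-like cells, dropping the filter on low counts gave 16 genes for diet in adipose, 96 for tissue on chow and 27 for tissue on high fat diet. The edgeR fit with the replicate block gave 32, 360 and 14, and DESeq2 with the block 6, 165 and 8. With the block, keeping doublets gave 17 for diet in adipose, and the 2 larger arterial-like clusters gave 58 for tissue on chow. In capillary-like cells, no filter gave 43, 31 and 11 genes, the block 129, 43 and 24, DESeq2 with the block 11 for diet in adipose, and the block with a mitochondrial limit of 20% 7 for tissue on high fat diet. In all endothelial cells, DESeq2 gave 2, 80 and 7 without the block and 21, 428 and 19 with it, and edgeR with the block 6 and 48 for diet in adipose and tissue on chow. With the block, the limit of 20% gave 2 and 0, Leiden resolution 2 gave 3 and 0, doublets kept gave 0 for tissue on chow, and named classes only gave 1 and 77. The cause of these shifts was not tested.

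Leaving out 1 library at a time with the block, arterial-like counts ranged from 0 to 116 (diet in adipose), 19 to 610 (tissue on chow) and 1 to 85 (tissue on high fat diet). Capillary-like counts ranged from 4 to 165, 2 to 56 and 0 to 99, and all endothelial counts from 0 to 21, 0 to 282 and 0 to 5, with 0 to 1 for tissue on chow without the block. The Depp1 difference by diet in mesentery ranged from 2.292 to 3.722 in arterial-like and from 0.331 to 1.745 in all endothelial cells. In capillary-like cells it ranged from -0.29, a reversal without mesentery on high fat diet A, to 1.555. The tested results on single genes leave out the Depp1 difference by diet in mesentery. Their alternatives were set beside the fit without the block, which made no call, or beside the fit with the block. Of these alternatives 86 kept the direction and the status of their fit, called or not called. Another 23 lost a call, 5 gained one and 0 reversed. The 86 include fits without a call that stayed without one, so they are not a count of calls that held. Run A held 39 to 146 capillary-like cells a library, which limits what could be seen there.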

Other observations

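A list of 6 genes that fatty acids switch on through PPAR receptors, of which 4 to 5 were tested, had 5 calls higher and 1 lower over 12 fits with the run as a block, and 0 without it. The 4 fits that held these calls called 3.13, 3.48, 0.775 and 1.23% of all genes. In arterial-like cells Angptl4, a secreted inhibitor of lipoprotein lipase, was at 2.61 and 19.0 CPM (runs A and B) in mesentery on chow, 16.6 and 181 CPM after high fat diet and 34.8 and 169 CPM in adipose on chow. The log2 difference with the block was 3.07 ± 0.36 for diet in mesentery (edgeR adjusted p of 1.97e-05) and -3.12 ± 0.36 for tissue on chow (edgeR adjusted p of 1.22e-05), comparisons that share the mesentery libraries on chow. Arterial-like sums of mesentery in run A held 765899 UMIs on chow and 360740 after high fat diet, so these Angptl4 values rest on few counts. Calls of this list were not followed in DESeq2 or with a library left out. Plin2, which coats lipid droplets, was at 45.7 and 57.8 CPM in mesentery on chow and at 74.9 and 176 CPM after high fat diet (1.22 ± 0.28, edgeR adjusted p of 0.0145). In capillary-like cells of adipose, Angptl4 (1.44 ± 0.30, edgeR adjusted p of 0.000554) and Plin2 (1.499 ± 0.30, edgeR adjusted p of 0.000212) were higher after high fat diet in both runs. Angptl4 was also higher in capillary-like cells of mesentery after high fat diet (1.34 ± 0.33, edgeR adjusted p of 0.00898), at 101 and 104 CPM in run A and 141 and 449 CPM in run B.

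The dissociation list had 6 calls with the block, all higher in mesentery and all of Hspa1a and Hspa1b, heat shock genes whose near-identical copies make the split of counts between them uncertain. The 3 fits that held them called 0.411, 0.23 and 0.356% of all genes. In capillary-like cells on chow the log2 differences were 3.00 for Hspa1a and 2.44 for Hspa1b.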
